A study of Mus musculus with 6 samples.

Results

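The 10 genes described here encode actin-related proteins of testis germ cells, the subunits of actin capping protein and 3 profilins. They were chosen by gene symbol, to set testis forms beside their somatic counterparts, and all 10 were found among the 26743 genes of the count table. The members were Actl7a, Actl7b and Actl9 (actin-like proteins), Capza1, Capza2, Capza3 and Capzb (capping protein), and Pfn1, Pfn3 and Pfn4 (profilins). Actl9 has 2 rows in the table, so that the 10 genes gave 11 rows. Whole testes of 3 wild-type (WT) and 3 Trf2-/- mice, all at post natal day 21, were sequenced as ribosome-depleted total RNA, each mouse giving 1 library. Trf2, listed under the symbol Tbpl1, encodes a relative of the TATA-binding protein that is abundant in testis. The study chose this age because round spermatids are then appearing in the first wave of spermatogenesis, and the comparison asks which testis transcripts change without Trf2. The labels name no other allele or treatment, and give neither the strain nor whether the mice were littermates.

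Actin filaments grow mainly at their barbed ends. Capping protein, a dimer of an alpha and a beta subunit, binds that end and blocks it, whereas profilin binds actin monomers and delivers them to growing ends. Male germ cells add their own versions of these proteins: Actl7a, Actl7b and Actl9 are actin-related proteins of spermatids, where actin structures between the acrosome and the nucleus hold the acrosome in place, Capza3 is the germ cell alpha subunit beside the somatic Capza1 and Capza2, and Pfn3 and Pfn4 are testis profilins beside the widely expressed Pfn1.

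Reads assigned to genes numbered from 21582123 to 29859347 in the WT and from 15187062 to 24530489 in the Trf2-/- libraries, and the smallest library was that of Trf2-/- mouse 3. A floor of 3 counts corresponded to between 0.105 and 0.190 CPM, that is counts per 1000000 reads of a library after scaling by TMM factors. Tbpl1 itself fell from 294.9 ± 12.5 CPM (SD, n = 3) in WT to 61.0 ± 4.6 in Trf2-/- testes, and where in the gene the remaining reads lie was not analysed here. A gene was said to rise or fall when edgeR's quasi-likelihood test gave a Benjamini-Hochberg adjusted p under 0.05 over the 16924 tested genes, and was called when the change was also at least 2-fold. Across the tested genes the log2 fold change had a median of 0.04.

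Positions are given in the mouse build NCBIM37 (mm9). Actl7a lies at chr4:56756294-56757797 on the plus strand and Actl7b at chr4:56752879-56754297 on the minus strand, 2 neighbouring genes of 1 exon each that point away from each other with 1997 bases between their starts. The coding Actl9 model, also of 1 exon, spans chr17:33569842-33571213 on the plus strand, and a model of 2 exons annotated as a pseudogene spans chr17:33569841-33571210 on that strand with 1368 exonic bases in common. Capza3, at chr6:139990046-139991310 on the plus strand, has 1 exon as well. The somatic alpha subunits are split genes, Capza1 at chr3:104625697-104667423 on the minus strand with up to 11 exons and Capza2 at chr6:17586234-17616972 on the plus strand with up to 10. Capzb, the beta subunit gene, covers chr4:138748814-138847733 on the plus strand and has 11 annotated transcripts. Of the profilins, Pfn1 lies at chr11:70465352-70468146 on the minus strand, Pfn3 at chr13:55510259-55516543 on the minus strand and Pfn4 at chr12:4776101-4785072 on the plus strand. Pfn4 has 4 exons.

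Promoter sequences, running from 250 bases before to 50 bases after each RefSeq gene start, were given for 9 of the 10 members in build GRCm38.p6. The 3 actin-like genes are shown because each had a row that fell, and Pfn4 is shown as a member with a smaller decrease and a promoter of another composition. Each is written 5′ to 3′ on the gene's strand, and capitals mark the letters TATAAA or TGATGTCA or their reverse complements, TTTATA and TGACATCA. TGATGTCA differs in a single letter from the cyclic AMP response element TGACGTCA, a site bound by factors of the CREB family, which include the spermatid activator CREM. It was added to the search after the sequences had been seen.
Actl7a, chr4:56743172-56743471, plus strand: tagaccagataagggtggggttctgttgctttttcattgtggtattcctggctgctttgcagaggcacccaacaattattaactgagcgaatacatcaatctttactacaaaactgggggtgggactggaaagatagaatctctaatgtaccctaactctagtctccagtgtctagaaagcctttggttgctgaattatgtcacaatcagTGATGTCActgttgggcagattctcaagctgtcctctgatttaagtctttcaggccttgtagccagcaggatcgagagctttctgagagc
Actl7b, chr4:56741376-56741675, minus strand: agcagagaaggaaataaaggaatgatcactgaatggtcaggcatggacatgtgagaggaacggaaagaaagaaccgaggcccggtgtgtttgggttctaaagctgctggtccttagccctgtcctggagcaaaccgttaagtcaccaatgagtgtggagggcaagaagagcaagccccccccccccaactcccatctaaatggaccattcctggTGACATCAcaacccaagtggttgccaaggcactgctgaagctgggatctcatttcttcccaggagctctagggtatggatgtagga
Actl9, chr17:33432649-33432948, plus strand: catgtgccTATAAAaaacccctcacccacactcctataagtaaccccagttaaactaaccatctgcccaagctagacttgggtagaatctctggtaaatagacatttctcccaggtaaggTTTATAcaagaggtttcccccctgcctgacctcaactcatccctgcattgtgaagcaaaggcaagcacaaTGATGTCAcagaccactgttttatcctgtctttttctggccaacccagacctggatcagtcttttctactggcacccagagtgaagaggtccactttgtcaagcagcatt
Pfn4, chr12:4769045-4769344, plus strand: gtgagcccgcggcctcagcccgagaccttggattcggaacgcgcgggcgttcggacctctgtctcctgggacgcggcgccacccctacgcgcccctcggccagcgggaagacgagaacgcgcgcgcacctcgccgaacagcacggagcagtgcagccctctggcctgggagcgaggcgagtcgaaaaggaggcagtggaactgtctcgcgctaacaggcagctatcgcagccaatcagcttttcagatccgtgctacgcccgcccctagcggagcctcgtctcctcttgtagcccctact

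TGATGTCA was found in the window of each of the 3 actin-like genes, at position -40 of Actl7a and -60 of Actl9 on the gene's strand, and at -36 of Actl7b on the opposite strand, counted in bases from the gene start to the first letter of the match. None of the other 6 members with a sequence held it, and among 32851 promoters of the same length 3.62% did. Because TGATGTCA was picked after these sequences had been read, its presence in them beside that share is a description and tests nothing. The full element TGACGTCA, present in 1.79% of promoters, was in none of the 9. Its first letters TGACG, which the full element contains and which 20.8% of promoters held on either strand, occurred in Capzb and at 2 places in Pfn3. TATAAA, held by 13.6% of promoters, was seen in Actl9 alone, at -242 on the gene's strand and at -130 on the opposite strand. CpG dinucleotides numbered 2 in Actl7a, 4 in Actl7b and 0 in Actl9, against a median of 7 over all promoters, and 14 in Capzb, 14 in Pfn1, 21 in Capza1, 35 in Pfn4 and 38 in Capza2. Pfn3 lay between, with 11. These letters describe the windows and do not show that a factor binds there.

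Of the 10 tested rows, which stand for 9 genes, 5 fell and 0 rose in Trf2-/- testes. The genes that fell were Actl7a, Actl7b, Actl9 by its 2-exon pseudogene row and not by the coding row, Capza3 and Pfn4. Over all tested genes 20.2% fell and 11.2% rose. Of these, 4 rows were called at 2-fold, where 4.30% of tested genes were called lower and 0.609% higher. The median log2 fold change over the 10 rows was -0.67. In 7 rows every Trf2-/- mouse lay below every WT mouse, a pattern seen in 26.8% of tested genes. Pfn3 did not pass the filter on low counts and has no test. As the samples are whole testes, fewer spermatids and less RNA in each spermatid cannot be told apart.

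**Figure D1:**
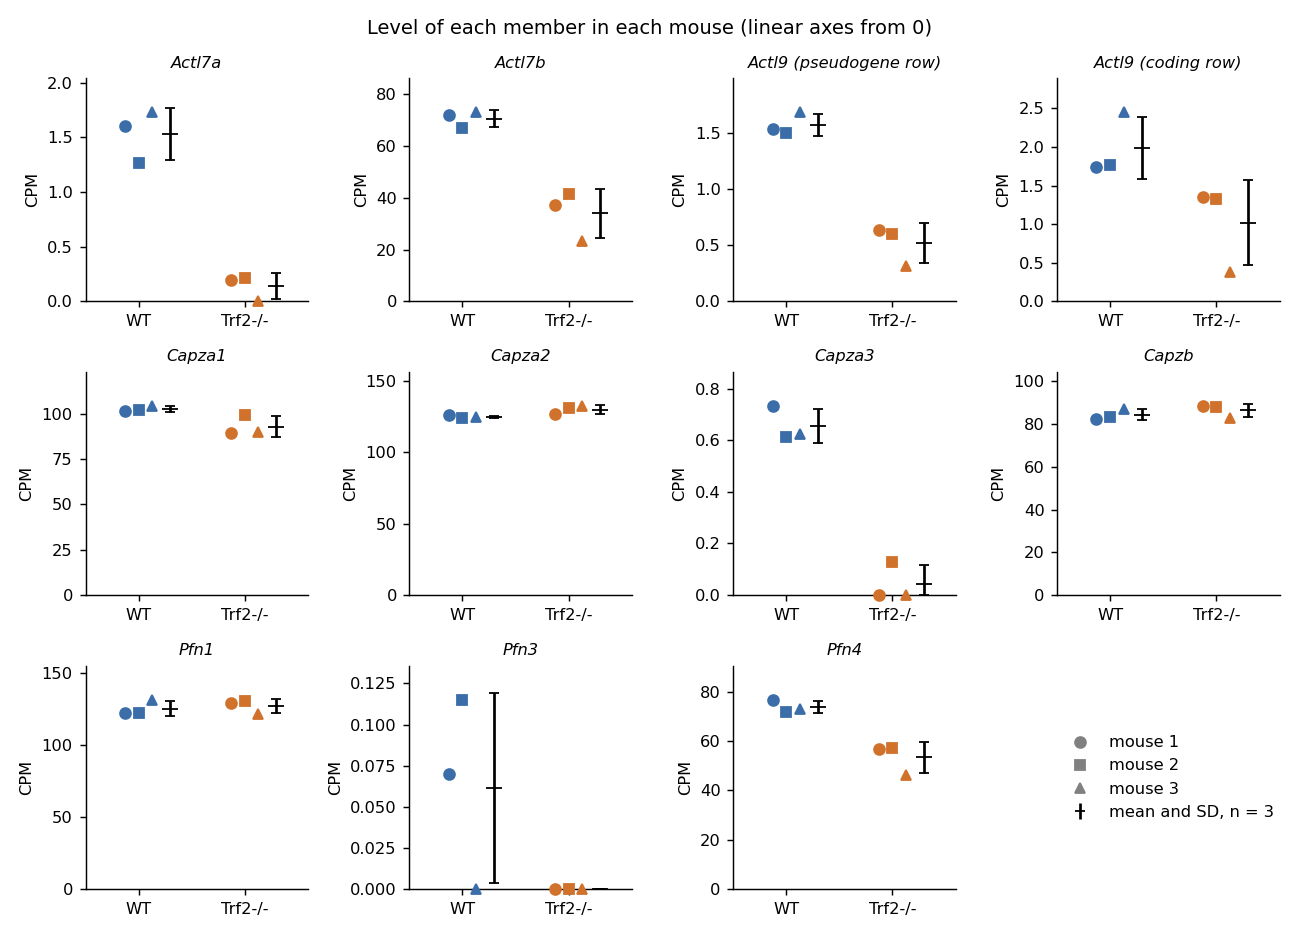
Level of each member row in each mouse, in CPM on linear axes that start at 0 and differ between panels. Symbols give the mouse number, which was not used to pair WT with Trf2-/- animals. Black marks give the mean and SD of 3 mice, with bars cut at 0. The Trf2-/- mice lie below the WT mice for Actl7a, Actl7b, both Actl9 rows, Capza1, Capza3 and Pfn4.

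Actl7a, an actin-like protein that spermatids need for acrosome attachment, had few reads in WT and hardly any in Trf2-/- testes. The counts were 46, 33 and 36 in WT and 5, 5 and 0 in the mutants. All 3 mutants lay below all WT mice, and the 0 of mouse 3 allows a level of up to 0.190 CPM. The mean went from 1.53 ± 0.240 to 0.138 ± 0.119 CPM (SD, n = 3). The fitted log2 fold change was -3.27 ± 0.456 (SE; 95% interval -4.30 to -2.23; edgeR adjusted p = 0.00118). From the summed counts, 115 against 10, the WT level was 9.78 times the Trf2-/- level, with an exact interval for counting error of 5.13 to 20.9.

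Its neighbour Actl7b, an actin-like protein of spermatids that is much more abundant at this age, fell less. Its counts were 2062, 1747 and 1520 in WT and 934, 969 and 366 in Trf2-/- mice. The genotypes did not overlap, but the mutants differed among themselves: they kept 52.5%, 58.9% and 32.8% of the WT mean in CPM, with mouse 3 lowest. The level went from 70.6 ± 3.21 to 33.9 ± 9.60 CPM (SD, n = 3), a log2 fold change of -1.04 ± 0.168 (SE; 95% interval -1.42 to -0.66; edgeR adjusted p = 0.00210). Without Trf2-/- mouse 3 the log2 fold change was -0.84 and the gene was no longer called at 2-fold, although its adjusted p was 3.15e-05. The same call was lost when libraries were scaled by size alone (-0.95) and with shrunken DESeq2 fold changes (-0.96).

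Actl9, an actin-like protein of the spermatid's perinuclear theca, had few counted reads. Because the coding row holds 4 bases of its own and the pseudogene row 1, a read over either model lies in both. Whether such reads were split between the rows or left out of both is not given in the sources used here. The level of Actl9 may therefore be higher than either row or their sum. The pseudogene row had 44, 39 and 35 counts in WT and 16, 14 and 5 in Trf2-/- mice, a log2 fold change of -1.53 ± 0.268 (SE; edgeR adjusted p = 0.00303). The coding row had 50, 46 and 51 counts in WT and 34, 31 and 6 in Trf2-/- mice, a log2 fold change of -0.87 ± 0.357 (SE; 95% interval -1.68 to -0.06) that did not pass the test (edgeR adjusted p = 0.0936). In both rows the mutants lay below the WT mice, with mouse 3 lowest. Without that mouse the coding row stood at -0.54. Summing the rows, a choice made after the data were seen, gave a log2 fold change of -1.14 (edgeR adjusted p = 0.0200).

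Capza3, the germ cell alpha subunit, was barely detected in Trf2-/- testes. Its counts were 21, 16 and 13 in WT against 0, 3 and 0 in Trf2-/- mice. Every mutant was at or under the floor of 3 counts, and every WT mouse was above it. The level went from 0.656 ± 0.0658 to 0.0429 ± 0.0743 CPM (SD, n = 3; edgeR adjusted p = 0.00366). From 50 counts against 3, the WT level was 14.2 times the Trf2-/- level, and the exact interval for counting error ran from 4.58 to 71.1. The fitted log2 fold change of -3.68 rests on the 3 reads of Trf2-/- mouse 2 and on the prior count, and became -6.96 without that mouse.

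The somatic capping subunits showed no change past the test. Capza1 had 2912, 2670 and 2172 counts in WT and 2249, 2319 and 1423 in Trf2-/- mice, or 102.7 ± 1.41 and 92.9 ± 5.70 CPM (SD, n = 3). The mutants lay below the WT mice, and the log2 fold change of -0.14 ± 0.0544 (SE; 95% interval -0.27 to -0.02) had an edgeR adjusted p of 0.0740. Without Trf2-/- mouse 2 it was -0.21 and passed (edgeR adjusted p = 0.0193). Capza2 had 3604, 3235 and 2597 counts in WT and 3189, 3047 and 2089 in Trf2-/- mice, or 124.7 ± 0.845 and 129.7 ± 2.87 CPM. Here the mutants lay above the WT mice, by a log2 difference of 0.06 (95% interval -0.04 to 0.15; edgeR adjusted p = 0.325). Scaled by library size alone, Capza2 was higher by 0.15 (edgeR adjusted p = 0.0230), under a scaling that moved the median of all tested genes to 0.13.

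Capzb, the beta subunit that pairs with any of the alpha subunits, had 2367, 2179 and 1819 counts in WT and 2228, 2057 and 1314 in Trf2-/- mice. The genotypes overlapped, at 84.4 ± 2.53 and 86.6 ± 3.03 CPM (SD, n = 3), and the interval of the log2 difference ran from -0.08 to 0.15 (edgeR adjusted p = 0.594). The table counts Capzb as a single gene, so that its sperm and somatic splice forms were not analysed here.

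Among the profilins, Pfn1, the widely expressed form, had 3509, 3197 and 2737 counts in WT and 3258, 3046 and 1926 in Trf2-/- mice. Its levels overlapped at 125.4 ± 5.17 and 127.2 ± 4.78 CPM (SD, n = 3), with an interval of the log2 difference from -0.09 to 0.14 (edgeR adjusted p = 0.761). Pfn4, a testis profilin, had 2200, 1872 and 1524 counts in WT and 1436, 1332 and 730 in Trf2-/- mice. All mutants lay below all WT mice and kept 77.2%, 77.4% and 62.5% of the WT mean, again with mouse 3 lowest. Pfn4 fell from 73.8 ± 2.56 to 53.4 ± 6.30 CPM, a log2 fold change of -0.46 ± 0.0826 (SE; 95% interval -0.65 to -0.28; edgeR adjusted p = 0.00335). Pfn3, the other testis profilin, had 2, 3 and 0 counts in WT and 0 counts in each Trf2-/- mouse. Neither genotype rose above the floor, and a difference in Pfn3 was not detectable at this depth. Its model shares 168 exonic bases with Slc34a1 on the opposite strand, which had 2, 1 and 0 counts in WT and 0 in each mutant.

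**Figure D2:**
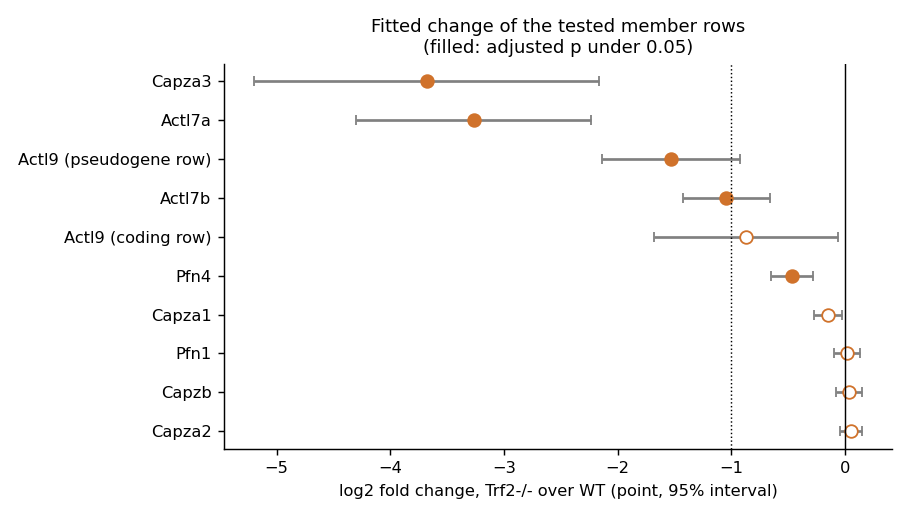
Fitted log2 fold change of Trf2-/- over WT for the 10 tested member rows (points) with 95% intervals (bars), filled where the edgeR adjusted p was under 0.05; the dotted line marks a 2-fold decrease. Capza3 and Actl7a have the lowest values and the widest intervals, and Capza1, Capza2, Capzb and Pfn1 lie within 0.15 of 0.

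Levels were compared between genes per kilobase of the deposited gene length. In WT testes Pfn1 stood highest at 122.2 ± 5.04 CPM per kb (SD, n = 3), followed by Pfn4 at 56.5 ± 1.96, Actl7b at 49.7 ± 2.26, Capza2 at 46.4 ± 0.315, Capza1 at 32.1 ± 0.440 and Capzb at 29.5 ± 0.882. Far below came the coding Actl9 row at 1.45 ± 0.292, its pseudogene row at 1.15 ± 0.0713, Actl7a at 1.02 ± 0.159, Capza3 at 0.519 ± 0.0520 and Pfn3 at 0.0779 ± 0.0733. In this order only the coding and pseudogene Actl9 rows, and the pseudogene row and Actl7a, were neighbours that lay within the sum of their SDs of each other. In Trf2-/- testes Actl7b, at 23.9 ± 6.77 CPM per kb, had dropped below Capza1 at 29.1 ± 1.78 and Capzb at 30.2 ± 1.06, with a distance from each that was smaller than the sum of the SDs, and Pfn4, at 40.9 ± 4.82, had dropped below Capza2 at 48.3 ± 1.07, by more than that sum. The testis members thus covered a wide range already in WT, with Actl7b and Pfn4 above every capping subunit per length, and Actl7a, each Actl9 row and Capza3 under 2 CPM. The Actl9 levels are those of the rows as counted, from which reads shared by the 2 models may be missing.

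Ratios between members within a mouse do not depend on the scaling between libraries. Among the 8 ratios computed, 0.1 is the smallest p that an exact two-sided permutation test of 3 against 3 can give, and no ratio can pass 0.05. Capza3 amounted to 0.754%, 0.639% and 0.648% of the summed Capza1 and Capza2 level in the WT mice and to 0.0209%, 0.149% and 0.0323% in the Trf2-/- mice, with 0.5 counts added. The genotypes did not overlap (log2 difference -3.87, exact p = 0.1, adjusted 0.133). The alpha subunit RNA of whole testis, already almost wholly somatic in WT, held less of the germ cell form in these mutants. Protein was not measured. Here 2 mutants had 0 Capza3 counts, so that their ratios are set by the added counts, and the difference ran from -4.71 without Trf2-/- mouse 2 to -3.29 without Trf2-/- mouse 1. Capzb relative to the 3 alpha subunits differed by a log2 difference of 0.07 and overlapped between genotypes (exact p = 0.2, adjusted 0.2).

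Pfn4 stood at 49.3%, 46.0% and 43.8% of the Pfn1 level in WT and at 34.6%, 34.4% and 29.8% in Trf2-/- mice, without overlap (log2 difference -0.49, exact p = 0.1, adjusted 0.133). Actl7a stood at 2.13%, 1.81% and 2.26% of Actl7b in WT and at 0.555%, 0.535% and 0.129% in Trf2-/- mice. The genotypes did not overlap in the ratio of these neighbours (log2 difference -2.61, exact p = 0.1, adjusted 0.133). In Trf2-/- mouse 3, with 0 Actl7a counts, the ratio is set by the added 0.5 counts, and without that mouse the difference was -1.92. Against Actb, the cytoplasmic beta-actin, the log2 differences were -3.86 for Actl7a, -1.25 for Actl7b and -1.45 for the summed Actl9 rows, each without overlap (exact p = 0.1, adjusted 0.133). Without Trf2-/- mouse 3 these were -2.91, -0.999 and -0.99. Actb itself was higher in every Trf2-/- mouse than in every WT mouse, which enlarges these differences. Its level was 849.4 ± 49.3 CPM in WT and 941.3 ± 17.8 in Trf2-/- mice (SD, n = 3). The ratio of Pfn3 to Pfn1 is not read, since Pfn3 was at or under the floor in every mouse.

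**Figure D3:**
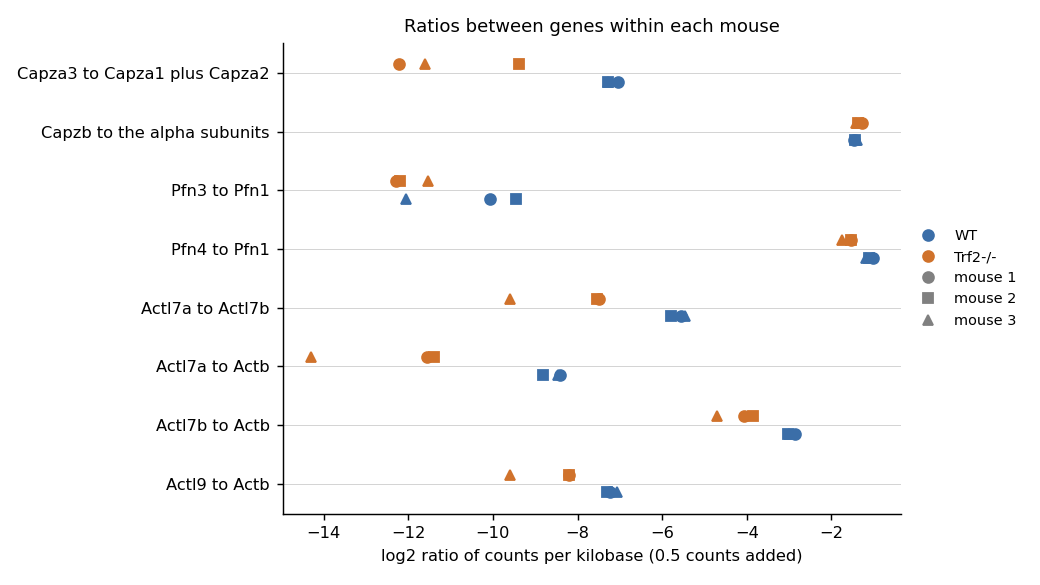
Log2 ratio of counts per kilobase between pairs of genes within each mouse, after adding 0.5 counts; colours give the genotype and symbols the mouse number. The Trf2-/- mice lie to the left of the WT mice in every ratio that has Capza3, Pfn4, Actl7a, Actl7b or Actl9 on top, and overlap with them for Capzb and Pfn3.

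Markers of germ cell stages moved beside these members. The counts of each list from here on stand against 20.2% of all tested genes that fell and 11.2% that rose. Of 11 tested round spermatid markers 9 fell, and all of these were called (7 of 11 without WT mouse 1 or without Trf2-/- mouse 1, 6 with shrunken DESeq2 fold changes, and 1 of the 3 left by a filter of 10 counts in every mouse). The median log2 change of the list was -2.49. Their summed level was 23.9 to 27.0 CPM in WT and 9.99 to 12.6 in Trf2-/- mice. Spaca7 (-5.00), Spaca3 (-4.56), Acrv1 (-4.27) and Catsper4 (-4.11), genes of acrosome proteins and of a sperm calcium channel, had the lowest log2 fold changes. In Trf2-/- mice Spaca7 had 0, 2 and 0 counts, Spaca3 1, 2 and 0, Acrv1 1, 3 and 0, and Catsper4 2, 2 and 0. All of these are at or under the floor of 3 counts, so that the sizes rest on few reads and on the prior count. Spaca1 (-0.22, edgeR adjusted p = 0.217) and Spata9 (-0.26, edgeR adjusted p = 0.317) did not pass. Of 7 elongating spermatid markers found, only Odf1, Gapdhs and Akap4 had enough reads to be tested, and these 3 fell. The summed level of the list was low, at 5.13 to 6.74 CPM in WT and 0.316 to 0.901 in Trf2-/- mice. Prm2 had 0, 1 and 1 counts in WT and Prm3 2, 1 and 0, with 0 in each mutant. The paper describes the expression of protamine and transition protein genes as low at this age. Pachytene spermatocyte markers were mixed, with 5 lower, among them the called Ccna1 (-1.63). The other 3, Sycp1 (0.29), Sycp3 (0.24) and Hormad1 (0.17), rose. The summed level of the list was 6286 to 6710 CPM in WT and 4866 to 5574 in Trf2-/- mice. This sum leans on Ldhc, its most abundant gene in WT, whose mean went from 2279.4 to 1406.5 CPM, and hides the genes that rose.

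Trf2-/- mouse 3, which had the lowest Actl7a, Actl7b, Actl9 and Pfn4 levels, was also the lowest of the mutants in the summed pachytene, round spermatid and elongating spermatid lists. No spermatogonial, Sertoli, Leydig, peritubular, macrophage or endothelial marker fell, and 1 of 8, 3 of 8, 1 of 6, 1 of 5, 4 of 6 and 1 of 4 tested markers rose, with Lyz2 as the single called gene (1.36). These rises depended on the setting. By library size alone 3 spermatogonial, 7 Sertoli, 3 peritubular and 5 macrophage markers rose. With 1 mouse left out the numbers ran from 0 to 2 for spermatogonial, 1 to 3 for Sertoli, 0 to 1 for Leydig and for peritubular, and 0 to 6 for macrophage markers, of which 0 rose without WT mouse 2 or without WT mouse 3, and 2 without WT mouse 1. The summed Sertoli list was at 1785 to 1900 CPM in WT and 2015 to 2200 in Trf2-/- mice, and the summed macrophage list at 160.5 to 184.2 and 183.7 to 362.1, highest in Trf2-/- mouse 1, without which 3 macrophage markers rose and Lyz2 was not called. Lyz2 was not called without any single WT mouse either. No analysed marker was at 0 in every mouse. The part of these cell types in the members' values was not tested.

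Other genes of the acroplaxome and perinuclear theca, the layers that anchor the acrosome to the spermatid nucleus, were lower as well. Of 11 listed genes 8 were tested, all 8 had negative log2 fold changes (7 when scaled by library size alone) and 5 fell, with a median of -0.55. Zpbp2, an acrosome matrix protein, was the called gene, with 4910, 4133 and 3654 counts in WT and 2375, 2346 and 812 in Trf2-/- mice (log2 fold change -1.03, edgeR adjusted p = 0.00498), although none of the list was called without Trf2-/- mouse 3, without WT mouse 3, by library size alone or with shrunken DESeq2 fold changes. Spata16 (-0.95), Dpy19l2 (-0.73), an inner nuclear membrane protein that holds the acrosome, Zpbp (-0.73) and Agfg1 (-0.37) also fell. Spaca1, which stands on the round spermatid list too, Gopc and Pick1 did not pass. Cylc1 and Cylc2, which encode cylicins of the theca, were too low to be tested, with 9, 8 and 6 counts against 1, 3 and 0 and with 10, 10 and 3 counts against 0, 1 and 0, and Ccin had at most 5 counts in any mouse.

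Further testis actin-related genes were near the limit of detection. Actl10 had 31, 22 and 22 counts in WT and 20, 9 and 12 in Trf2-/- mice (log2 fold change -0.63, edgeR adjusted p = 0.152) and was the 1 of 5 genes tested. Actl11 had 8, 4 and 8 counts against 1, 2 and 0, and Actrt1 3, 5 and 5 against 1, 0 and 0. Actrt2 had 2, 5 and 2 counts against 0 in each mutant, and Actrt3 0, 1 and 2 against 5, 1 and 1. None of the 4 tested conventional actins passed in edgeR's test or with DESeq2, including the cytoplasmic actins Actb (0.15, edgeR adjusted p = 0.0564) and Actg1 (-0.13, edgeR adjusted p = 0.107), the 2 with an unadjusted p under 0.05. Scaling by library size alone, dropping the filter on low counts, or leaving out WT mouse 3 or Trf2-/- mouse 3, let 1 rise. Leaving out Trf2-/- mouse 1 let 1 fall.

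Among the other genes that cap filament ends or regulate capping, those that passed the test rose. Of 17 tested genes for filament end capping and its regulators, 15 had positive log2 fold changes, 6 rose and 0 fell, with a median of 0.23. The number that rose was 3 without any single WT mouse, 4 with the replicate block and 9 when scaled by library size alone. Scin, a severing and capping protein, was called, with 79, 44 and 28 counts in WT and 161, 95 and 74 in Trf2-/- mice (log2 fold change 1.37, edgeR adjusted p = 0.00595). Gsn, the gelsolin gene, rose by 0.71 (adjusted p = 0.00191). Carmil1 (0.23) and Cd2ap (0.26), which bind capping protein, Flii (0.18) and Tmod3 (0.20), which caps the pointed end, rose less. Among 12 genes of monomer binding and filament turnover 3 fell and 2 rose. In place of 2, 1 rose with the replicate block and without WT mouse 1, WT mouse 3 or Trf2-/- mouse 1, and 6 rose when scaled by library size alone. Cap2, a cyclase-associated protein that recycles actin monomers, fell 2-fold or more, with 187, 170 and 149 counts in WT and 95, 71 and 33 in Trf2-/- mice (-1.15, adjusted p = 0.00244), and was not called without Trf2-/- mouse 3 or with shrunken DESeq2 fold changes. Tmsb10 (-0.48) and Pfn2 (-0.31, adjusted p = 0.00484), a profilin best known from neurons, fell, and Tmsb4x (0.32) and Cfl1 (0.20) rose. Over all 84 genes of the actin lists 71 were tested, of which 17 fell and 13 rose, with a median of 0.06. For comparison, 20.2% of all tested genes fell and 11.2% rose, so that many of these counts are ordinary for this contrast.

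**Figure D4:**
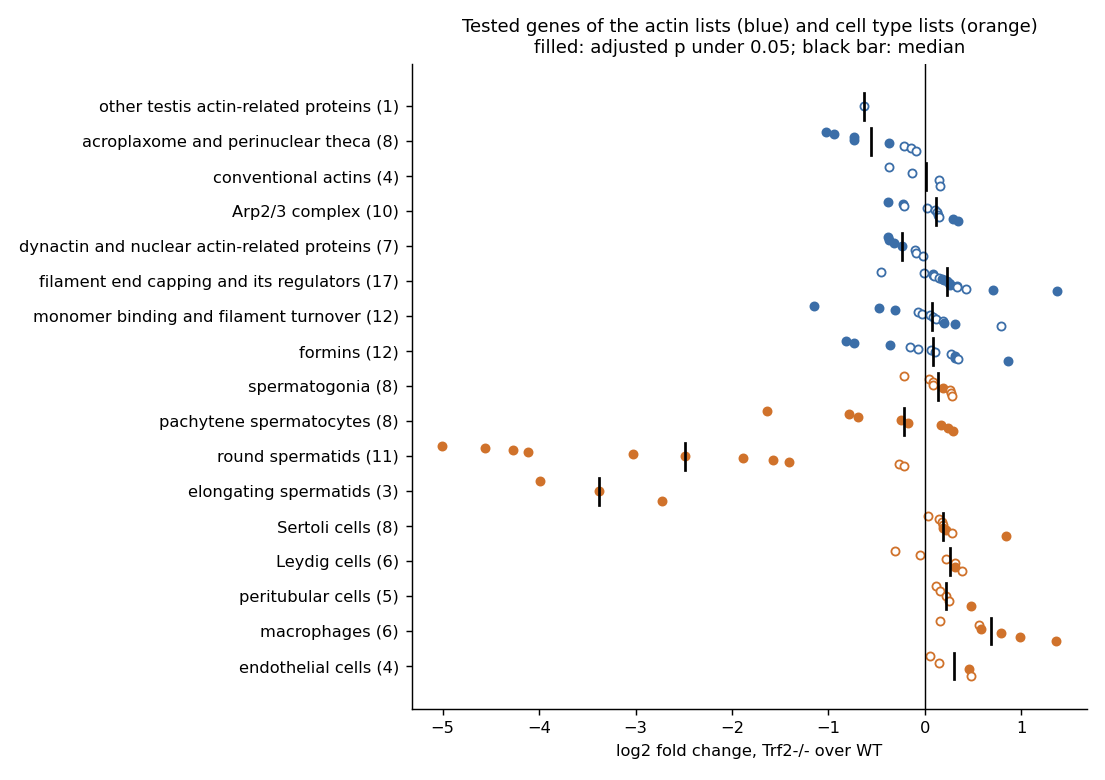
Log2 fold change of Trf2-/- over WT for the tested genes of each list, the number tested in brackets; actin lists are blue, cell type lists orange, filled points had an edgeR adjusted p under 0.05 and black bars give the medians. The round and elongating spermatid lists reach furthest to the left, with medians of -2.49 and -3.38, and the acroplaxome list has a median of -0.55.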

How the data were processed

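The authors deposited raw read counts per gene for 6 testis libraries (single-end, stranded total RNA kit), 1 column for each mouse. Per the submitters' processing notes, CASAVA 1.8.2, TopHat2 2.0.10, Bowtie2 2.1.0, HTSeq 0.5.4p3 and DESeq2 1.0.19 were used, on the build mm9. The counting mode, its strand setting and the annotation release are not given in the sources used here. The 12 normalized columns of the table were not used.

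Counts were tested with edgeR 4.0.16 (R 4.3.3): filterByExpr, TMM factors, glmQLFit and glmQLFTest without a block, over 16924 genes that held 99.91% of the reads, with Benjamini-Hochberg adjustment over all of them. A log2 fold change is given with its standard error or its 95% interval. CPM are scaled by TMM factors, and CPM per kb use the deposited gene length. Ratios within a mouse took 0.5 added counts and an exact permutation test. Count ratios have exact 95% intervals, which like the floor of 3 counts cover counting error only. The study describes 3 independent biological replicates per genotype, and the labels used here add only a replicate number. Every pair of libraries of 1 genotype differed by more than sampling noise (chi-square per degree of freedom of at least 3.32). The edgeR script was tested on simulated data.

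Positions and exons come from the GENCODE annotation of NCBIM37, promoters from RefSeq (GRCm38.p6). The sequences cited in the text are from that table, in which no entry matched Capza3.

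All members were named, as were, of most lists, the genes called at 2-fold (at most 4) or otherwise those with the smallest adjusted p. The spermatogonial, Sertoli, Leydig, peritubular and endothelial lists are given by counts alone. Members and lists (actin-related and acroplaxome genes, conventional actins, Arp2/3, dynactin and nuclear actin-related proteins, end capping, monomer binding, formins, and markers of 9 cell types) were chosen with earlier results of these data known. Alternatives were DESeq2 1.42.0 (fold changes shrunken or not), other scalings, filters, a replicate block and leaving out each mouse. Rhox5, Prm1 and Tnp2, listed as markers, were not analysed here.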

Additional observations from a re-analysis of the deposited data

How the results depend on the processing

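Actl7a, Actl7b, the Actl9 pseudogene row, Capza3 and Pfn4 were lower in Trf2-/- testes with an adjusted p under 0.05 in every alternative that tested them. The coding Actl9 row was lower but never passed (adjusted p 0.0563 to 0.239). The counts moved more. Over all genes 830 were called, 403 with shrunken DESeq2 fold changes (97.3% of them lower, against 87.6%) and 497 with at least 10 counts required in every mouse. Shrinkage pulls fold changes toward 0 by construction. Of the 4 member rows called, 1 remained under each of these settings, Actl7a with shrinkage and Actl7b with the filter, and the 5 member rows past the adjusted p became 2 with that filter, which removes Actl7a, both Actl9 rows and Capza3 from the table. With 1 mouse left out, 3 to 4 member rows were called and 5 to 6 passed, and 705 to 1019 genes were called, of which 77.7% were lower without Trf2-/- mouse 3. Scaling by library size gave 79.7% lower, 3 called member rows, with Actl7b (-0.95) as the one lost, and 6 past the adjusted p. The Pfn1 difference, which never passed, ran from -0.0096 to 0.060 with 1 mouse left out and was below 0 without Trf2-/- mouse 1 (-0.0030) and without Trf2-/- mouse 2.

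With the replicate number as a block (replicate block), 801 genes and 4 member rows were called and 5 member rows passed, with a log2 fold change of -1.08 for Actl7b and -0.47 for Pfn4, and it changed no call on a member. Deviations of same-numbered mice correlated at -0.097, -0.031 and -0.10, and those of WT mouse 1 and Trf2-/- mouse 3 at 0.11. Such values from 3 mice per genotype cannot tell whether same-numbered mice share a litter or a batch. With that block, the ratio differences kept their values and the smallest exact p was 0.25. Depth limits what can be said of Pfn3, and of the size of the decrease of Capza3 and Actl7a, whose Trf2-/- libraries held at most 5 reads each. Shrunken log2 fold changes of these were -0.98 and -1.56.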

Other observations

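Genes that start new filaments were mixed between the genotypes. Of the 10 Arp2/3 complex genes, which build branched actin networks, Arpc1a (log2 fold change -0.38, edgeR adjusted p = 0.00159) and Arpc2 (-0.23, adjusted p = 0.00594) fell in Trf2-/- testes and Actr3b (0.34) and Arpc3 (0.29) rose, with a median of 0.12 over the complex (6 rose when scaled by library size alone, 1 with DESeq2 or the replicate block, and 0 without WT mouse 2, WT mouse 3 or Trf2-/- mouse 1). Of 12 tested formins, which nucleate unbranched filaments, 3 fell and 3 rose, with a median of 0.08 (2 fell and 5 rose when scaled by library size alone, 2 fell and 1 rose without Trf2-/- mouse 1, and 1 fell and 3 rose without WT mouse 3). Fmn1 had 1114, 1072 and 799 counts in WT and 681, 559 and 243 in Trf2-/- mice (-0.82, edgeR adjusted p = 0.00544), lowest in Trf2-/- mouse 3. Daam2 rose by 0.31 (adjusted p = 0.00384).

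The 7 tested genes of dynactin and nuclear actin-related proteins all had negative log2 fold changes, with a median of -0.24, and 4 of them fell (5 negative and 3 fell when scaled by library size alone). Actl6a, an actin-related subunit of chromatin remodelling complexes, had 3389, 3060 and 2487 counts in WT and 2254, 2276 and 1388 in Trf2-/- mice (-0.37, edgeR adjusted p = 0.00126). Actr1a, which forms the short filament of dynactin, changed by -0.39 (adjusted p = 0.00172). Actr10 (-0.32) and Actr8 (-0.24) fell as well, and none of the 4 was called at 2-fold.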
